A study of Mus musculus with 18 samples.

Results

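Interferon-stimulated genes are the genes that cells switch on when type I, type II or type III interferon binds its receptor. The 40 genes described here were taken by gene symbol from the deposited tables and joined by Ensembl identifier to the count table, in which they are 40 of 22619 genes. All 40 had reads in at least 1 library. Expression was measured by RNA sequencing in 18 libraries of sorted thymocytes, the developing T cells of the thymus, from wild-type thymi that had been grafted for 28 days. In work on thymus grafts, autonomy means that the graft sustains its own thymocytes without incoming progenitors, and turnover that progenitors from outside replace them. DP cells carry both CD4 and CD8, and DN3 cells are the earlier double-negative stage at which the T-cell receptor beta locus rearranges. The groups are DP autonomy with 5 libraries, DP turnover with 4, DN3 autonomy with 5 and DN3 turnover with 4. No source used here gives the hosts, strain, sex or age. Nothing in the labels ties a library to 1 animal, so the p-values reflect only the spread among these libraries, which may in part be technical.

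Type I interferons signal through the receptor chains Ifnar1 and Ifnar2 and the kinases Jak1 and Tyk2, which phosphorylate STAT proteins. Stat2 and Irf9 are subunits of the resulting transcription factor complex, which recognises the interferon-stimulated response element (ISRE) in promoters. Interferon gamma acts through Ifngr1 and Ifngr2, Jak1 and Jak2, and its target promoters carry the gamma-activated site (GAS). Low constitutive interferon signalling in the thymus, to which epithelial cells contribute, is known to set a basal level of many of these genes in thymocytes.

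Promoters are shown because the ISRE is the element through which type I interferon is known to act. RefSeq promoter windows, from 250 bases before to 50 after the transcription start on GRCm38.p6, could be matched to 30 of the 40 members. The motif GAAANNGAAA, the core of an ISRE searched on both strands, occurred in 16 of these 30 members (53.3%) and in 3.99% of the 27025 symbols in the table. The motif TTCNNNGAA, the core of a GAS site, occurred in 9 of 30 (30%) and in 9.55% of all symbols. A match is a description of the letters and not evidence of binding. The windows of 6 members that the results return to are printed with each ISRE match in capitals, the gene strand 5′ to 3′; a match that starts with TTTC is the motif on the other strand. They lie at chr4:156200845-156200926 (minus strand) for Isg15, chr7:104465190-104465259 (minus) for Trim30a, chr11:58199492-58199561 (plus) for Igtp, chr19:34640755-34640843 (plus) for Ifit1, chr19:34583343-34583446 (plus) for Ifit3 and chr8:71537557-71537632 (minus) for Bst2.
Isg15: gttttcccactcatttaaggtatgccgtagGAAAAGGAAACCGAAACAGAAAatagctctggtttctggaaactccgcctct
Trim30a: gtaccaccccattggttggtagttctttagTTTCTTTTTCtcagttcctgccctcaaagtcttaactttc
Igtp: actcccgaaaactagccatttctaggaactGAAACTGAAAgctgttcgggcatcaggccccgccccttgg
Ifit1: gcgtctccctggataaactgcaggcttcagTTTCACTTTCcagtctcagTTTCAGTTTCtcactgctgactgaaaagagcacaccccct
Ifit3: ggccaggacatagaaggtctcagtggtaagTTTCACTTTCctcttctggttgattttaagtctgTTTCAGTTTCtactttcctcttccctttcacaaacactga
Bst2: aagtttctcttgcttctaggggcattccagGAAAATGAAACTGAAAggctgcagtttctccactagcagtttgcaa
Isg15 holds 3 overlapping matches, Ifit1, Ifit3 and Bst2 hold 2 each, and Trim30a and Igtp 1 each in the window shown. The windows of Irf9 and Samhd1 hold no match to the ISRE motif. That of Samhd1 holds a match to the GAS motif, and that of Irf9 does not.

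Total counts ran from 5032273 to 20076446 in DP autonomy, from 6329039 to 24191044 in DP turnover, from 7426834 to 21808512 in DN3 autonomy and from 12260295 to 14846126 in DN3 turnover libraries. Levels are CPM, read counts scaled to a common library size with TMM factors, and 3 counts correspond to 0.114 to 0.57 CPM depending on the library. The DP markers Cd4, Cd8a, Cd8b1, Cd1d1 and Themis summed to 7352 to 8114 CPM in DP autonomy and 7223 to 7800 CPM in DP turnover libraries. In DN3 autonomy they summed to 481 to 1130 CPM, and in DN3 turnover to 597 to 1975 CPM, with the highest sum in library RP1141B. Themis makes up most of the sum in the other DN3 turnover libraries. In RP1141B Cd8a and Cd8b1 had 385 and 615 CPM, against at most 7.35 and 24.7 CPM in the other DN3 turnover libraries, and Cd4 had 135 CPM, against at most 2.0 CPM. The DN3 autonomy libraries lay between, with Cd8a at 39.0 to 71.7 CPM and Cd8b1 at 69.6 to 131 CPM. Cd1d1 went the other way, at 31.8 to 40.1 CPM in DN3 autonomy and 61.6 to 117 CPM in DN3 turnover. The part of these reads in the members' DN3 changes was not tested. RP1141B was the lowest of its group for 19 of the 40 members, ties counted. Without RP1141B, 0 members passed in DN3 autonomy over turnover, where 5.95% of all genes rose and 6.92% fell. In DP over DN3 turnover 2 were then higher and 14 lower, where 14.4% of all genes were higher and 16.1% lower. A log2 change carries its standard error (SE) from edgeR's quasi-likelihood test, and adjusted p-values are Benjamini-Hochberg values over all genes tested. Autonomy and turnover libraries share no library number, so a difference between animals or preparations and the condition cannot be told apart.

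**Figure D1:**
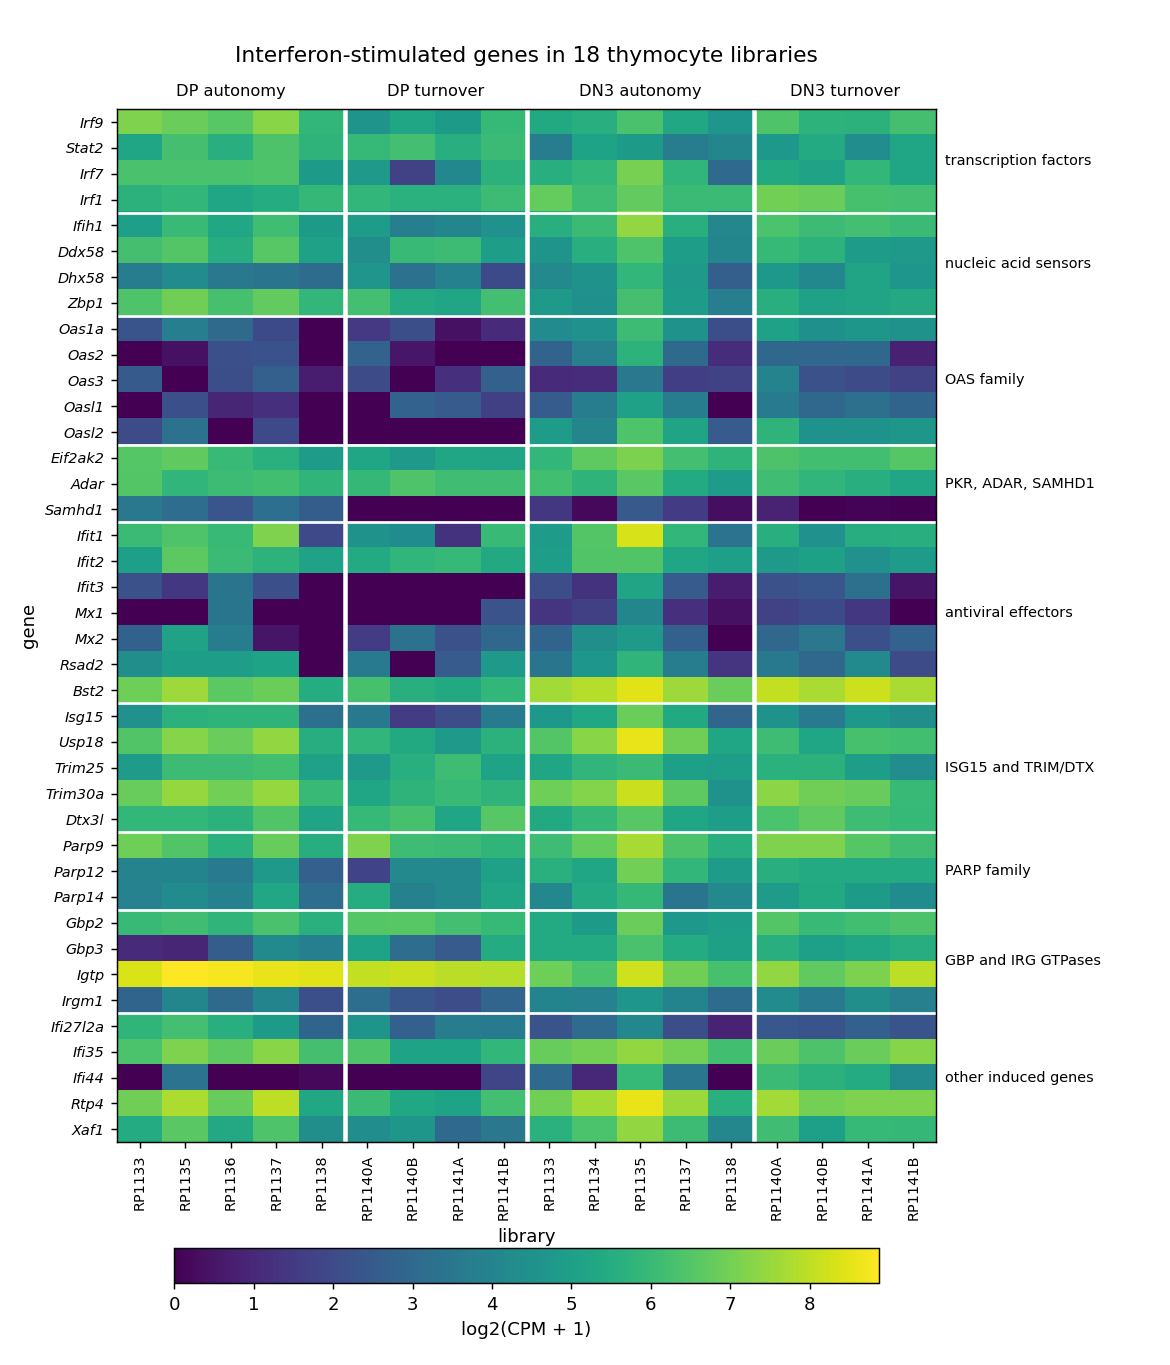
Level of each of the 40 interferon-stimulated genes (rows, grouped by role) in each of the 18 libraries (columns), as log2(CPM + 1). Igtp and Bst2 are bright throughout, the OAS family, Ifit3, Mx1 and Ifi44 are dark in DP libraries, and DN3 autonomy library RP1135 forms a bright column.

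In DP cells, 4 of the 36 interferon-stimulated genes tested rose in autonomy relative to turnover, Irf9, Samhd1, Trim30a and Igtp, and 0 fell. Across all 10339 genes tested, 0.861% rose and 0.861% fell. The median log2 change of the 36 was 0.85, against -0.02 for all genes tested. Positive changes made up 25 of the 36 (69.4%), against 48.7% of all genes tested. At an unadjusted p under 0.05, 16 members were higher and 0 lower, and 17.1% of all genes tested passed in either direction. Oas2, Oasl2, Mx1 and Ifi44 had too few reads in DP libraries to be tested. In these bulk samples, more cells of a type that expresses a gene and more RNA per cell cannot be told apart.

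Irf9, the DNA-binding subunit of the interferon-activated complex, was the member that passed among the 4 transcription factors of the list. Its level was 141, 113, 94.8, 155 and 57.1 CPM in DP autonomy libraries RP1133, RP1135, RP1136, RP1137 and RP1138, against 23.2, 35.7, 27.7 and 61.0 CPM in the 4 DP turnover libraries. The groups overlap only through autonomy library RP1138 and turnover library RP1141B. The log2 change was 1.58 (SE 0.34), a 3.00-fold rise with an adjusted p of 0.0362 by edgeR. Irf9 lies at chr14:55603571-55610030 on the plus strand and overlaps Rnf31 on the same strand, so reads in the shared part are uncertain. Stat2, its partner in the complex, averaged 58.8 ± 19.1 CPM in autonomy and 61.1 ± 11.4 CPM in turnover (SD, n = 5 and 4), a log2 difference of -0.07 (SE 0.26). Irf7, which amplifies type I interferon responses and is itself induced, had 79.0, 79.8, 79.9, 84.4 and 27.8 CPM in autonomy and 26.7, 2.32, 16.4 and 50.6 CPM in turnover. Here 4 autonomy libraries exceeded every turnover library and the fifth lay within their range; the log2 difference of 1.54 (SE 0.62) did not pass (adjusted p = 0.216, edgeR). Irf1, a mainly interferon gamma-induced factor, averaged 49.6 ± 9.29 CPM and 55.6 ± 7.87 CPM (SD, n = 5 and 4; log2 -0.18, SE 0.22).

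Samhd1, a nucleotide phosphohydrolase that restricts viruses by depleting deoxynucleotides, was present in autonomy and had no read in any DP turnover library. It had 10.8, 7.97, 4.06, 8.37 and 5.14 CPM in the 5 autonomy libraries and 0 CPM in all 4 turnover libraries. Against a floor of 3 counts per library, Samhd1 was at least 27.7-fold higher in autonomy (adjusted p = 0.0103, edgeR). Samhd1 lies at chr2:157097533-157135265 on the minus strand. The other RNA-acting effectors did not pass: Eif2ak2, the kinase PKR, had a log2 difference of 0.98 (SE 0.34), and Adar, an RNA adenosine deaminase, one of -0.08 (SE 0.21).

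Trim30a, a TRIM protein that in mouse restrains Toll-like receptor signalling, had 110, 174, 126, 177 and 61.8 CPM in autonomy, against 36.9, 53.0, 62.0 and 53.9 CPM in turnover. The lowest autonomy library, RP1138, lay just under the highest turnover library. The rise was 2.5-fold (log2 1.32, SE 0.29, adjusted p = 0.0395, edgeR). Isg15, a ubiquitin-like protein conjugated to other proteins, had 21.6, 51.4, 52.9, 53.5 and 8.77 CPM in autonomy and 10.9, 1.94, 3.25 and 11.3 CPM in turnover. Its log2 difference was 2.46 (SE 0.64) and missed the threshold (adjusted p = 0.0710, edgeR). Usp18, the protease that removes Isg15 and dampens Ifnar signalling, lay near it with a log2 difference of 1.38 (SE 0.35, adjusted p = 0.0651, edgeR).

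Igtp, an immunity-related GTPase that acts on pathogen vacuoles, was the most abundant member per kilobase of exon in DP cells, at 192.5 ± 28.7 CPM per kb in autonomy and 127.3 ± 10.8 CPM per kb in turnover (SD, n = 5 and 4). It had 328, 466, 429, 380 and 342 CPM in autonomy and 267, 283, 247 and 233 CPM in turnover, with no overlap between the groups. The rise was 1.5-fold (log2 0.58, SE 0.14, adjusted p = 0.0493, edgeR). Igtp overlaps Irgm2 on the same strand of chromosome 11. The other GTPases of the list did not pass, with log2 differences from -1.58 for Gbp3 to 0.78 for Irgm1. Samhd1 and Igtp were the 2 members whose autonomy libraries all exceeded all turnover libraries; 4.22% of all genes tested did so, and 3.97% did the opposite, with 0 members among them.

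The remaining groups of members held none that passed. Of the antiviral effectors, Ifit1, which binds viral RNA that lacks a host cap, had 65.7, 85.5, 62.7, 142 and 2.87 CPM in autonomy and 22.3, 19.0, 1.47 and 61.5 CPM in turnover (log2 1.44, SE 0.88). Ifit3 had no read in turnover and 3.60, 1.70, 9.67, 3.46 and 0 CPM in autonomy (adjusted p = 0.0638, edgeR). Mx1, an antiviral dynamin-like GTPase, had reads in 1 of 5 autonomy and 1 of 4 turnover libraries, at 9.99 and 3.77 CPM. All 6 tested antiviral effectors had positive log2 differences, while all 3 PARP family members had negative ones, between -0.60 and -0.01. The sensors Ifih1, Ddx58, Dhx58 and Zbp1, which recognise foreign nucleic acids, ran from -0.08 to 1.21 on the log2 scale. The nearest to the threshold besides Ifit3, Usp18 and Isg15 were Xaf1, at log2 1.84 (SE 0.49, adjusted p = 0.0742, edgeR), and Ifi35, at 1.06 (SE 0.31, adjusted p = 0.0994).

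**Figure D2:**
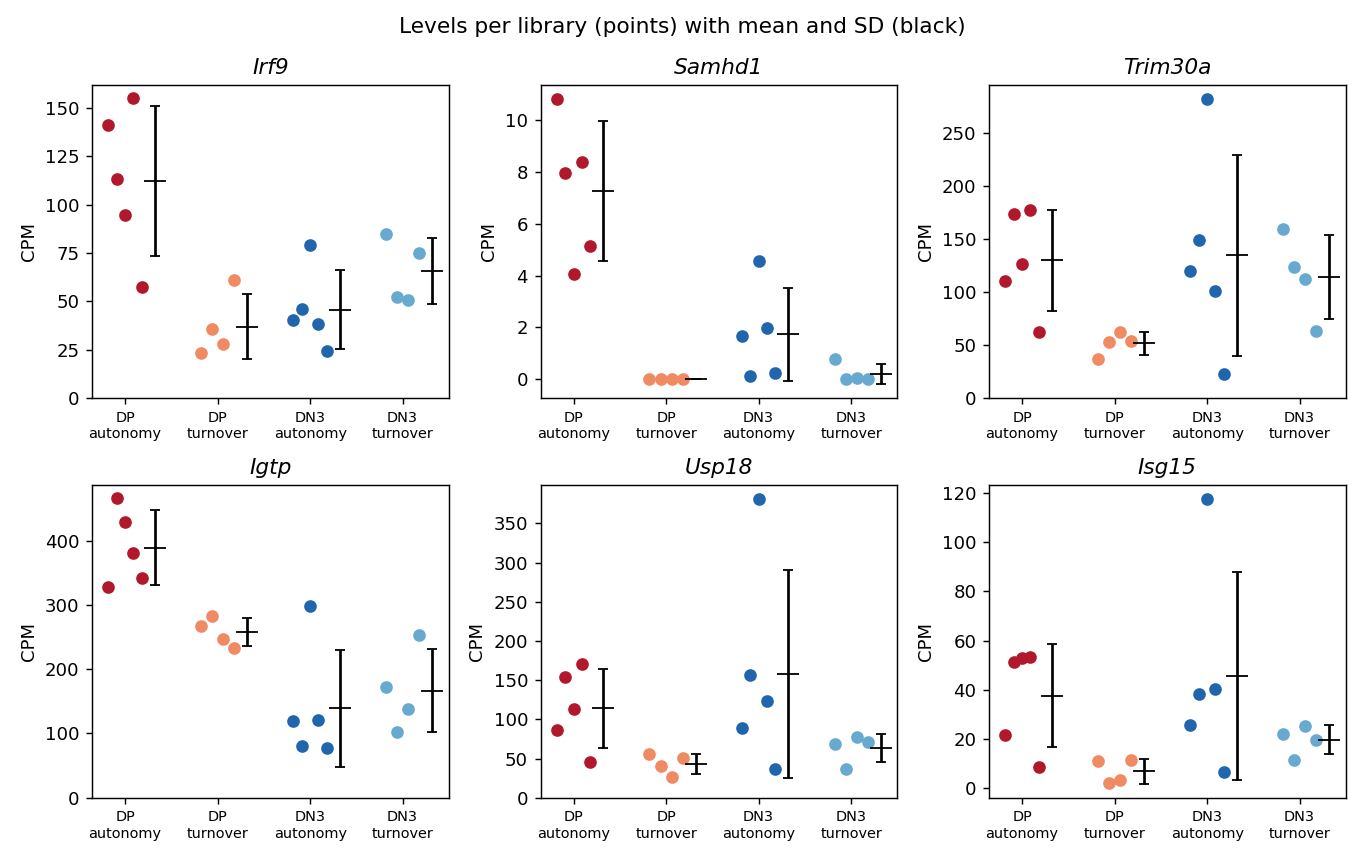
CPM of 6 members in each library (points) with the mean and SD (black) in DP autonomy, DP turnover, DN3 autonomy and DN3 turnover. Irf9 and Igtp are highest in DP autonomy, and Samhd1 is at 0 in all 4 DP turnover libraries. A single DN3 autonomy library stands above the other DN3 libraries for Trim30a, Igtp, Usp18 and Isg15.

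Markers of other cell types moved in both directions between the DP groups, and most of those tested did not pass. The 8 macrophage markers summed to 137, 106, 43.6, 72.8 and 20.7 CPM in DP autonomy libraries RP1133, RP1135, RP1136, RP1137 and RP1138, against 12.4, 3.39, 35.6 and 8.27 CPM in DP turnover. Adgre1 was at 0 in all DP autonomy libraries, and C1qc and Csf1r in all DP turnover libraries. Of the 5 macrophage markers tested, 1 rose in autonomy: C1qc, a complement component, at 12.5 ± 11.5 CPM in autonomy (SD, n = 5) and 0 in turnover. The 7 conventional dendritic cell markers summed to 7.11 to 151 CPM in autonomy and 5.95 to 18.7 CPM in turnover, with Xcr1 and Clec9a at 0 in both, and 0 of 4 tested passed. The 7 plasmacytoid dendritic cell markers summed to 252 to 532 CPM in autonomy and 567 to 699 CPM in turnover. Ly6d carries most of that sum, at 212 to 412 CPM in autonomy and 504 to 681 CPM in turnover. It was the 1 of 3 tested that fell. Irf8 had 7.58, 31.2, 13.2, 7.07 and 0.756 CPM in autonomy and 0.875, 0.724, 3.68 and 5.45 CPM in turnover. Tcf4 overlapped, at 8.18 to 58.3 CPM in autonomy and 15.3 to 61.3 CPM in turnover. Siglech had 30.4 CPM in autonomy library RP1135 and 0 CPM in every other DP library. Without RP1133 and RP1135, the autonomy libraries with the most macrophage marker reads, the log2 differences were 1.45 for Irf9, 1.22 for Trim30a and 0.56 for Igtp, and Samhd1 had 4.06, 8.37 and 5.14 CPM in the 3 remaining autonomy libraries. With those 2 libraries left out, a setting chosen after the data were seen, 0 members passed by edgeR, and of all genes tested 6 were higher and 3 lower.

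The DP calls near the threshold depend on single libraries. Samhd1 passed with every single library left out, whereas Irf9 passed in 3 of 9 such fits, those without turnover library RP1141B or autonomy library RP1136 or RP1138, and Trim30a and Igtp in 1, the one without autonomy library RP1138. Without RP1138, 11 members rose, where 1.34% of all genes rose. Without each of the other libraries 1 or 2 members rose, where 0.122% to 0.698% of all genes did. In 1 model of all 18 libraries, 4 members also rose, Ifit3, Irf9, Oasl2 and Samhd1, where 0.981% of all genes rose. In that model Trim30a (adjusted p = 0.111, edgeR) and Igtp (adjusted p = 0.306) did not pass. With the turnover libraries RP1140A and RP1140B, and RP1141A and RP1141B, summed and counted as 2, only Samhd1 passed. In that fit 0.0711% of all genes rose. The authors' deposited table called 13 of the 38 members with an adjusted p higher in DP autonomy and 0 lower, with 3.93% of all genes with an adjusted p called higher. In the authors' deposited table Irf9 had a log2 fold change of 1.58 (SE 0.34, adjusted p = 0.000273, DESeq2) and Isg15 one of 2.44 (SE 0.61, adjusted p = 0.00284).

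In DN3 cells, 0 of the 40 members rose and 0 fell in autonomy, while 6.53% of the 10766 genes tested rose and 8.35% fell. At an unadjusted p under 0.05, 3 members were higher and 0 lower by edgeR, against 31.4% of all genes in either direction. After adjustment DESeq2 called 1 member higher, where 6.95% of all genes were called higher, and voom 1 lower, where 10.6% of all genes were called lower. The median log2 change of the members was 0.14, against -0.05 for all genes tested. Positive changes made up 26 of 40 (65%), against 46.9% of all genes tested. In 0 members did the libraries of the groups separate completely, where 8.26% of all genes were higher and 10.1% lower in every autonomy library.

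Irf9 had 40.5, 46.2, 78.9, 38.3 and 24.2 CPM in DN3 autonomy libraries RP1133, RP1134, RP1135, RP1137 and RP1138, against 84.9, 52.1, 50.9 and 75.0 CPM in DN3 turnover. The log2 difference was -0.54 (SE 0.30, adjusted p = 0.235, edgeR). Stat2 averaged 20.6 ± 9.93 CPM in autonomy and 30.7 ± 10.2 CPM in turnover (SD, n = 5 and 4; log2 -0.58, SE 0.35). Irf7 and Irf1 had log2 differences of 0.51 (SE 0.53) and -0.26 (SE 0.23). None of these factors passed, and 3 of the 4 differences were negative.

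The smallest p-values in DN3 cells belonged to Ifit2, Usp18, Samhd1 and Isg15. Ifit2, an antiviral protein of the Ifit family, had 29.4, 86.5, 87.8, 36.2 and 31.2 CPM in autonomy and 25.9, 32, 21.3 and 28.2 CPM in turnover (log2 1.01, SE 0.36, adjusted p = 0.0731, edgeR). Usp18 had 89.4, 156, 382, 124 and 37.2 CPM in autonomy and 68.3, 36.9, 77.2 and 71.7 CPM in turnover (log2 1.30, SE 0.50). Isg15 had 25.7, 38.4, 118, 40.4 and 6.47 CPM in autonomy and 22.0, 11.6, 25.4 and 19.7 CPM in turnover (log2 1.21, SE 0.58). For Usp18 and Isg15, 4 autonomy libraries exceeded every turnover library and RP1138 lay below most of them. Samhd1 was low throughout, at 1.68, 0.149, 4.57, 2.0 and 0.261 CPM in autonomy and 0.791, 0, 0.0703 and 0 CPM in turnover (log2 2.95, SE 1.28). Ifit1 and Mx1 had log2 differences of 1.34 (SE 0.73) and 1.24 (SE 1.11). The authors' deposited table called 1 member, Ifit2, higher in DN3 autonomy and 0 lower, with 8.96% of all genes called higher.

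**Figure D3:**
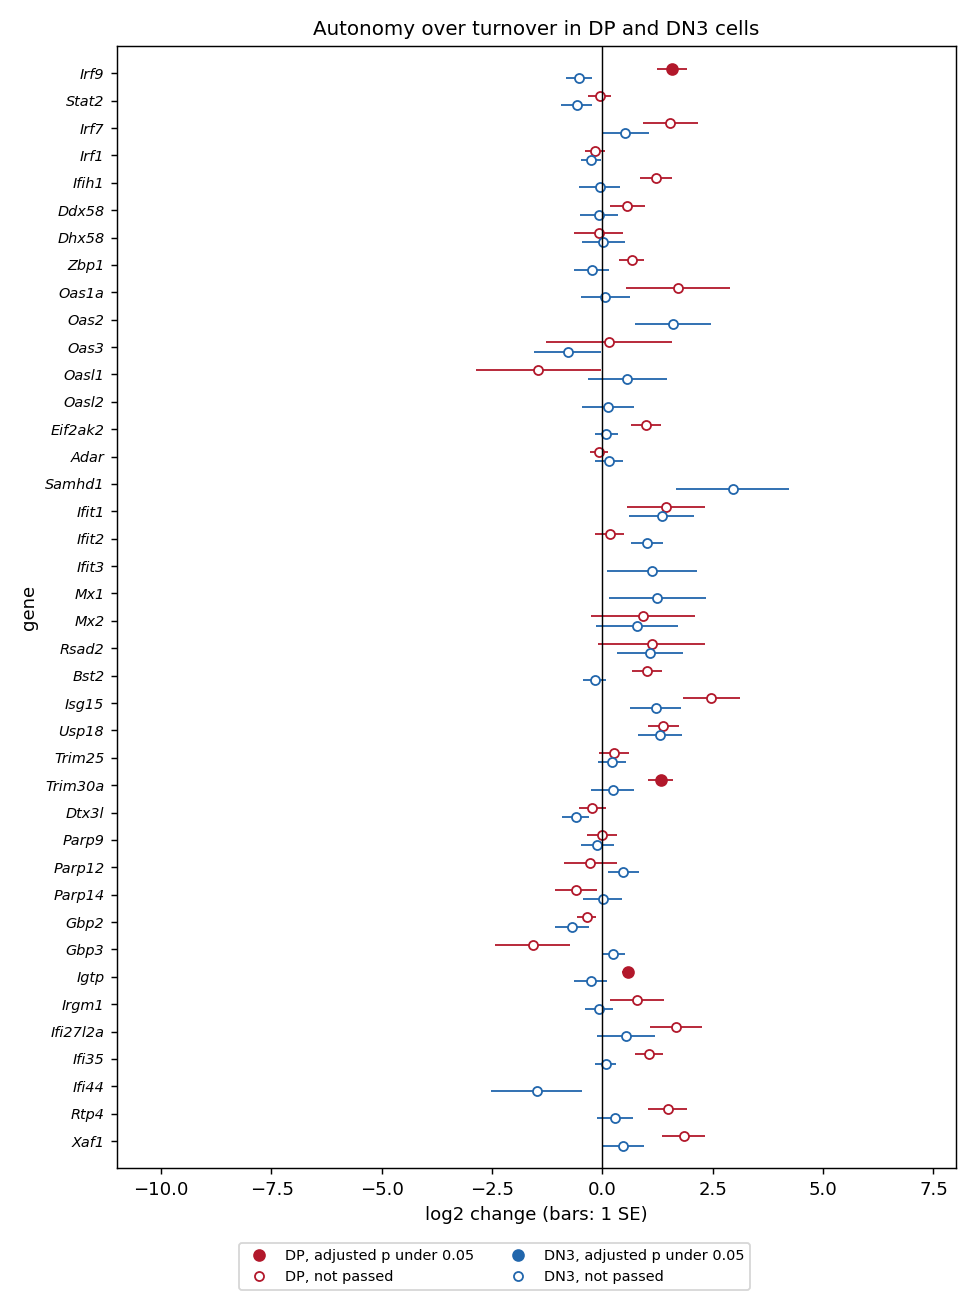
Log2 change, autonomy over turnover, of each member in DP (red) and DN3 (blue) libraries with bars of 1 SE; filled points passed an adjusted p of 0.05. Irf9, Trim30a and Igtp are filled in DP and none in DN3; Samhd1 and Ifit3 in DP, which had no read in turnover, and Oas2, Oasl2, Mx1 and Ifi44 in DP, not tested, have no red point.

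Library RP1135 held the highest value of 38 of the 40 members in the DN3 autonomy group, and RP1138 the lowest of 34, ties counted. The 40 members summed to 1751, 2265, 4763, 1886 and 914 CPM in DN3 autonomy libraries RP1133, RP1134, RP1135, RP1137 and RP1138, against 2497, 1941, 2052 and 1992 CPM in DN3 turnover. The autonomy libraries lay on both sides of the turnover libraries. RP1138, the lowest, was the deepest DN3 library, with 21808512 reads. In DP autonomy the sums were 2111, 2956, 2145, 2886 and 1281 CPM for RP1133, RP1135, RP1136, RP1137 and RP1138, against 1549, 1345, 1209 and 1548 CPM in DP turnover. RP1138 was again the lowest, with the lowest value of 31 of 40 members, while RP1137 held the highest of 20 and RP1135 of 14. Without RP1135, 4 members fell in DN3 autonomy, namely Dtx3l, Gbp2, Ifi44 and Irf9, and the members' median became -0.31; 9.59% of all genes fell in that fit, so the count of 4 among 39 members tested is near the background. Without RP1138, Isg15 and Usp18 rose in DN3 autonomy, where 4.40% of all genes rose, and without RP1133 Ifit2 did, where 5.08% of all genes rose.

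**Figure D4:**
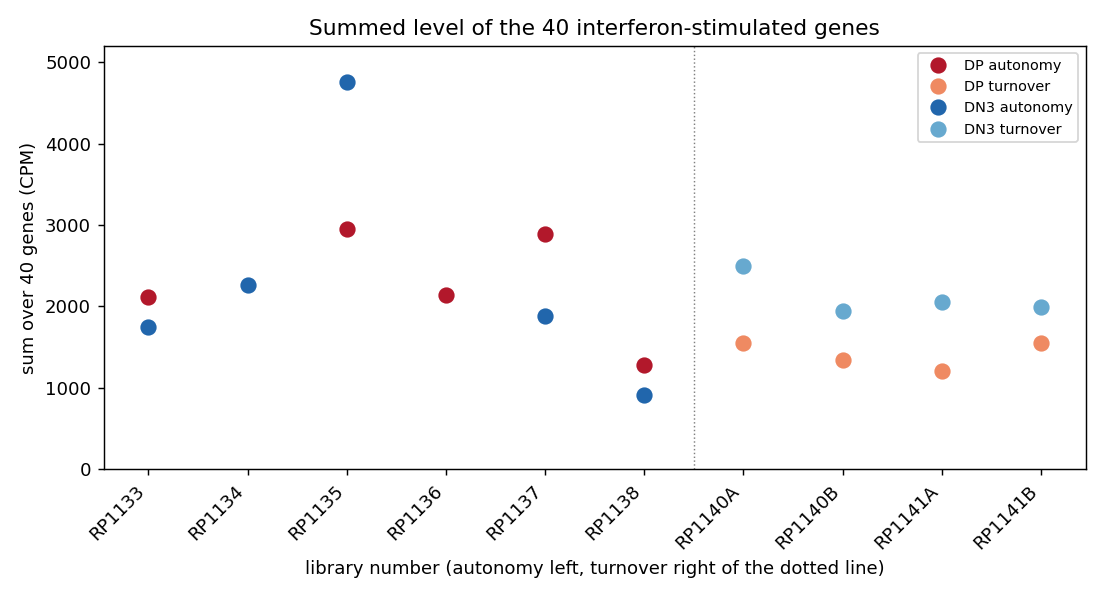
Summed CPM of the 40 members in each library, by library number, for DP autonomy, DP turnover, DN3 autonomy and DN3 turnover. RP1135 reaches 4763 CPM in DN3 autonomy and RP1138 has the lowest sum of both autonomy groups, at 1281 CPM in DP and 914 CPM in DN3.

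Markers of other cell types moved with the DN3 groups in both directions. The 8 macrophage markers summed to 5.76 to 17.4 CPM in autonomy and 22.3 to 38.1 CPM in turnover, with Mertk at 0 in autonomy and C1qc and Adgre1 at 0 in turnover; 1 of the 2 tested, Lyz2, fell. The 7 plasmacytoid dendritic cell markers summed to 287 to 831 CPM in autonomy and 727 to 1576 CPM in turnover, with Siglech and Klk1 at 0 in autonomy and Klk1 at 0 in turnover, and Tcf4 and Ly6d fell. Ly6d carries most of that sum, at 231 to 751 CPM in autonomy and 624 to 1466 CPM in turnover, while Bcl11a and Cox6a2 stayed below 7 CPM. The 8 markers of NK and innate-like cells summed to 1839 to 2528 CPM in autonomy and 1228 to 1705 CPM in turnover. Gzma makes up most of that sum, at 1827 to 2519 CPM in autonomy and 1113 to 1569 CPM in turnover. Klrb1c was at 0 in autonomy, and Ncr1 and Gzmb were at 0 in turnover. Of 3 tested markers of NK and innate-like cells, Gzma and Tbx21 rose and Nkg7 fell. Nkg7 had 3.12 to 65.3 CPM in autonomy and 113 to 161 CPM in turnover. The part of these cells in the members' levels was not tested.

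The effect of autonomy differed between DP and DN3 cells for Irf9. The difference of the log2 changes, DP minus DN3, was 2.13 (SE 0.48), a 4.39-fold larger ratio in DP cells (adjusted p = 0.0126, edgeR on all 18 libraries). Oasl2, an OAS-like protein, was the other member with a positive difference past the threshold (adjusted p = 0.0381), and 0 members were negative; of all 11521 genes tested, 2.88% were positive and 2.61% negative. Oasl2 had 3.22, 8.93, 0, 2.84 and 0 CPM in DP autonomy and 0 CPM in all 4 DP turnover libraries, and 28.1, 15.3, 85.0, 35.0 and 4.91 CPM in DN3 autonomy against 53.3, 21.9, 21.9 and 24.8 CPM in DN3 turnover. With 0 reads in a group its fitted difference is no estimate of size. The median difference of the 40 members was 0.75, against 0.06 for all genes. Positive differences made up 31 of 40 (77.5%), against 52.7% of all genes. Samhd1 and Ifit3 missed the threshold (adjusted p = 0.0615 for each, edgeR). The other members given throughout did not pass, with differences of 0.53 (SE 0.46) for Stat2, 1.04 (SE 0.89) for Irf7, 0.08 (SE 0.31) for Irf1, 1.28 (SE 0.92) for Isg15, 0.13 (SE 1.25) for Ifit1 and -0.15 (SE 2.74) for Mx1. Irf9 passed with every single library left out, at adjusted p from 0.00347 to 0.0328, and without RP1133 and RP1135 (difference 2.01). Oasl2 passed in 6 of these 18 fits.

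The comparison of DP with DN3 cells describes the change from the earlier to the later thymocyte stage in each condition. The contrasts share a model but not their libraries. In autonomy, 8 of 40 members were lower in DP than in DN3 cells and 5 were higher, while 25.2% of all 11521 genes were lower and 23.7% higher. In turnover, 13 members were lower and 1 was higher, with 19.1% of all genes lower and 15.8% higher. The members' median log2 change was -0.32 in autonomy, against -0.003 for all genes. In turnover it was -0.88, or -0.83 with genes at 0 set to their bound, against -0.04 for all genes. Whether the stage change of the list as a whole differed between the conditions was not tested.

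Among the factors, Stat2 was higher in DP cells in both conditions. It had 36.4, 74.5, 47.9, 82.3 and 53.2 CPM in DP autonomy, against 12.6, 34.5, 27.6, 12.6 and 15.8 CPM in DN3 autonomy, with no overlap. The log2 change was 1.52 (SE 0.31, adjusted p = 0.000469, edgeR) in autonomy and 0.99 (SE 0.35, adjusted p = 0.0309) in turnover. The turnover call was lost without DN3 library RP1140A or RP1141A and without DP library RP1140B or RP1141B. Irf1 fell in both, with log2 changes of -0.73 (SE 0.21, adjusted p = 0.00674) in autonomy and -0.81 (SE 0.23, adjusted p = 0.0107) in turnover, and its libraries did not overlap in either. Irf9 was higher in DP than in DN3 cells in autonomy (log2 1.30, SE 0.32, adjusted p = 0.00227, edgeR) and had a negative difference that did not pass in turnover (log2 -0.83, SE 0.36, adjusted p = 0.0783). Irf7 did not pass in either, at 0.23 (SE 0.59) in autonomy and -0.81 (SE 0.67) in turnover.

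The OAS family holds enzymes that make the messenger oligoadenylate for RNase L, and relatives of these enzymes. In DP relative to DN3 autonomy 4 of 5 members fell, Oas1a, Oas2, Oasl1 and Oasl2, with log2 changes from -3.47 to -2.27, and Oas3 had -0.29 (SE 1.12). Without DN3 autonomy library RP1135, Oas1a, Oas2 and Oasl1 no longer passed (log2 -1.57, -2.18 and -2.61), and Oasl2 still did (-2.78). The call of Oas2 was also lost without most other libraries of these groups, that of Oasl1 without DP library RP1133, RP1136 or RP1138, and that of Oas1a without DP library RP1137. In turnover 2 of 5 fell, Oas1a and Oasl2. Oas1a had 1.75, 3.35, 0.307 and 1.15 CPM in DP turnover, against 32.7, 21.1, 24.7 and 21.8 CPM in DN3 turnover (log2 -3.90, SE 0.96, adjusted p = 0.00365, edgeR). Oasl2, with no read in DP turnover, was at least 116-fold lower there than in DN3 turnover against the floor of 3 counts per library (adjusted p = 0.000152, edgeR). The sensor Ifih1, also called MDA5, fell in turnover (log2 -1.88, SE 0.49, adjusted p = 0.00552, edgeR), at 28.6, 12.9, 15.9 and 21.2 CPM in DP against 80.5, 67.2, 73.3 and 65.8 CPM in DN3 cells.

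Bst2, or tetherin, which holds budding virions at the cell surface, was the most abundant member per kilobase in DN3 cells, at 241.9 ± 97.5 CPM per kb in autonomy and 271.4 ± 42.7 CPM per kb in turnover (SD, n = 5 and 4). It had 76.5, 46.1, 41.2 and 58.0 CPM in DP turnover, against 263, 213, 291 and 213 CPM in DN3 turnover (log2 -2.15, SE 0.35, adjusted p = 9.54e-05, edgeR). In autonomy it also fell, with 118, 187, 98.5, 116 and 44.3 CPM in DP against 200, 237, 354, 188 and 113 CPM in DN3 cells (log2 -0.95, SE 0.30, adjusted p = 0.0133), and here the libraries overlapped. The autonomy call of Bst2 was lost without DN3 library RP1135. Ifit3, with no read in DP turnover, was at least 16.0-fold lower there than in DN3 turnover (adjusted p = 0.00288, edgeR). Ifit1 had log2 differences of -0.49 (SE 0.83) in autonomy and -0.62 (SE 0.94) in turnover, Isg15 of -0.27 (SE 0.60) and -1.55 (SE 0.70), and Mx1 of -1.07 (SE 1.77) and -0.92 (SE 2.0), and none of these passed.

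Members of other roles moved in both directions. Igtp was higher in DP than in DN3 autonomy (log2 1.48, SE 0.30, adjusted p = 0.000405, edgeR), with no overlap, and not called in turnover (log2 0.63, SE 0.33). Gbp3, a guanylate-binding protein, had 1.14, 0.956, 5.10, 17.6 and 13.3 CPM in DP autonomy, against 41.7, 41.5, 79.4, 42.7 and 31.7 CPM in DN3 autonomy (log2 -2.61, SE 0.67, adjusted p = 0.00288, edgeR). Parp12, an ADP-ribosyltransferase that acts against RNA viruses, was likewise lower in every DP autonomy library, at 5.59 to 26.1 CPM in DP and 28.5 to 126 CPM in DN3 cells (log2 -2.01, SE 0.50, adjusted p = 0.00238, edgeR). Ifi27l2a, a small interferon-induced membrane protein, rose in DP autonomy, with 54.7, 72.7, 45.8, 27.4 and 6.20 CPM against 3.98, 7.58, 16.8, 3.40 and 0.783 CPM in DN3 autonomy (log2 2.67, SE 0.65, adjusted p = 0.00204, edgeR). In turnover, Xaf1 fell (log2 -1.82, SE 0.57, adjusted p = 0.0170, edgeR), and Ifi44 had 0, 0, 0 and 2.62 CPM in DP against 64.3, 51.1, 42.7 and 18 CPM in DN3 cells (adjusted p = 0.0212). Samhd1 was called lower in turnover (adjusted p = 0.0416), but it was at 0 in DP and averaged 0.215 ± 0.385 CPM in DN3 cells (SD, n = 4), under the floor, so no fold is given. Without DN3 turnover library RP1140A the adjusted p of Samhd1 was 0.328. The turnover calls of Ifi44 and Xaf1 rest on single DP libraries too: Ifi44 was lost without RP1140A, RP1140B or RP1141A, and Xaf1 without RP1141A or RP1141B. The other members called were Eif2ak2, Ifi35, Irgm1 and Rtp4, lower in turnover, and Zbp1, higher in autonomy.

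In autonomy 3 members were lower and 2 higher in every DP library than in every DN3 library, where 20.8% of all genes were lower and 17.1% higher. In turnover the same held for 15 lower and 3 higher members, where 19.6% of all genes were lower and 15.1% higher. Without DN3 autonomy library RP1135, in the autonomy contrast 7 members were higher and 4 lower, and the members' median became 0.34. In that fit 22.7% of all genes were higher and 23.6% lower. Without DP turnover library RP1141A, 8 members were lower in the turnover contrast, where 17.4% of all genes were lower. In autonomy, 4 of the 5 macrophage markers tested were higher in DP than in DN3 cells, with sums of 20.7 to 137 CPM in DP and 5.76 to 17.4 CPM in DN3 libraries.

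**Figure D5:**
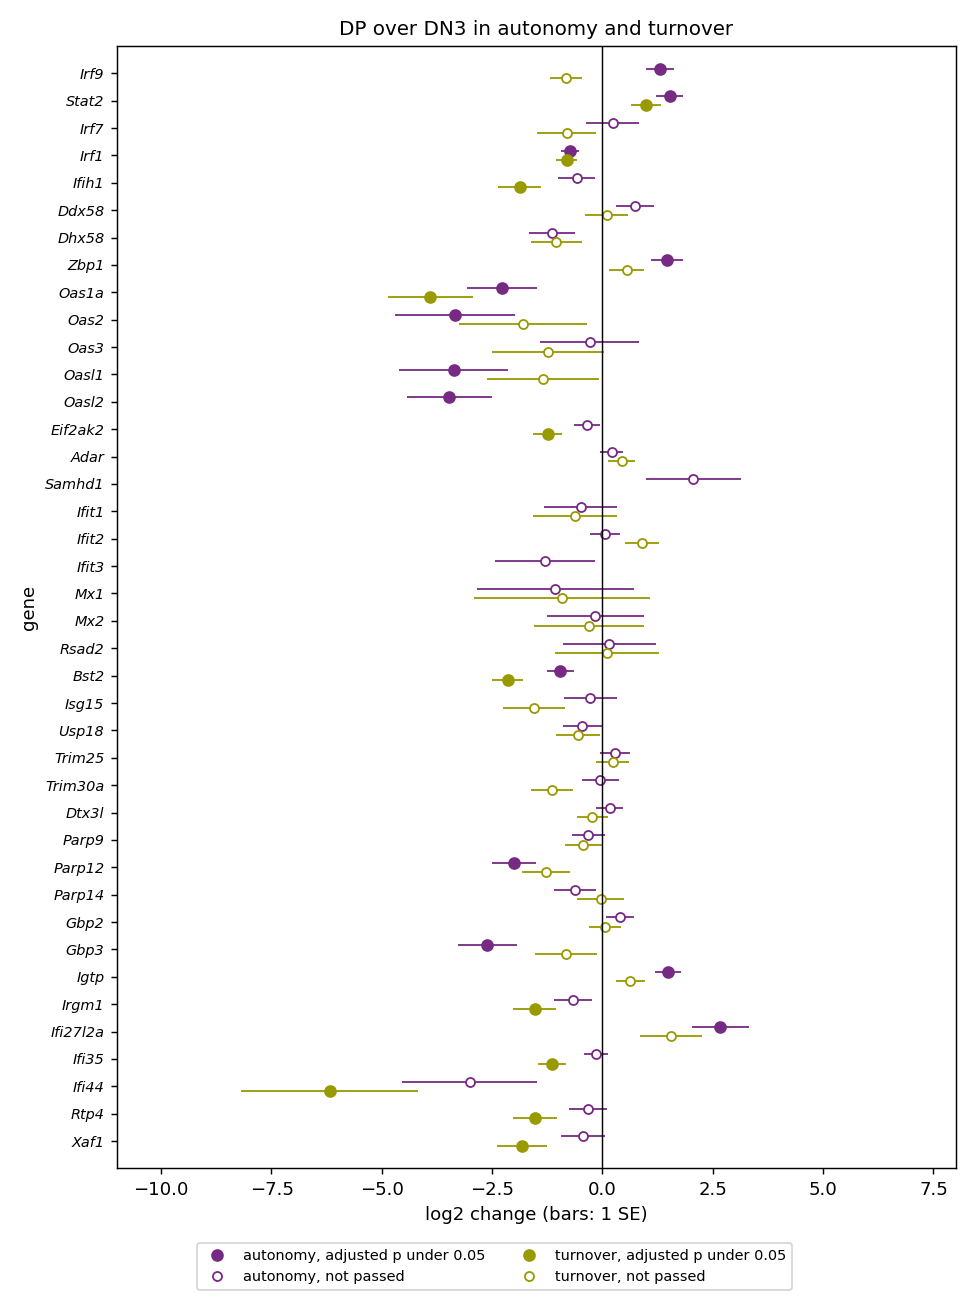
Log2 change, DP over DN3, of each member in autonomy (purple) and turnover (olive) with bars of 1 SE; filled points passed an adjusted p of 0.05. Most filled olive points lie left of 0, and Stat2, Irf9, Zbp1, Igtp and Ifi27l2a are the filled purple points to the right; Oasl2, Ifit3 and Samhd1 in turnover, at 0 in DP cells, are not drawn.

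Genes that carry the interferon signal were also examined, from lists of the pathway. For their counts in autonomy over turnover, 0.861% of all genes tested rose and 0.861% fell in DP cells. In DN3 cells 6.53% rose and 8.35% fell. Transcripts of the ligands were at or near 0: Ifnb1, Ifng, Ifna1, Ifna2, Ifna4 and Ifnl2 had no read in any library, and 0 of 10 ligand genes had enough reads to be tested. Of 5 receptor genes tested, 0 passed in DP autonomy over turnover and 1, Ifngr1, fell in DN3 autonomy, at 545 ± 90.2 CPM in autonomy and 860 ± 252 CPM in turnover (SD, n = 5 and 4; log2 -0.67, SE 0.19, adjusted p = 0.0358, edgeR). Library RP1141B held the highest Ifngr1 level in DN3 turnover, 1210 CPM, and without it Ifngr1 no longer passed (log2 -0.46, SE 0.17, adjusted p = 0.0909). Ifnar1 was higher in DP than in DN3 cells in both conditions, at log2 1.40 (SE 0.22) in autonomy and 1.01 (SE 0.24) in turnover.

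Of the 4 kinases and STATs examined, Jak1 and Stat3 fell in DN3 autonomy, with log2 changes of -0.71 (SE 0.18, adjusted p = 0.0215, edgeR) and -0.72 (SE 0.19, adjusted p = 0.0261), and 0 passed in DP autonomy over turnover. The effect of autonomy on Jak1 differed between the cell types (difference 1.06, SE 0.22, adjusted p = 0.00828, edgeR), with 798 ± 79.4 CPM in DP autonomy, 624 ± 84.6 CPM in DP turnover, 228 ± 57.5 CPM in DN3 autonomy and 373 ± 26.8 CPM in DN3 turnover. Of 6 negative regulators, 0 passed in DP cells, where Socs1, an inhibitor of JAK kinases, came nearest (log2 0.51, SE 0.12, adjusted p = 0.0535, edgeR), and Ptpn1 rose in DN3 autonomy (log2 0.48, SE 0.14). Without RP1141B, Jak1 still fell in DN3 autonomy (adjusted p = 0.0455, edgeR), and Stat3 (0.0555) and Ptpn1 (0.0538) no longer passed. Socs1 was higher in DP than in DN3 cells, at log2 1.73 (SE 0.23) in autonomy and 1.55 (SE 0.25) in turnover. Of the genes that lead from nucleic acid sensing to interferon, 0 of 10 passed in DP and 0 of 11 in DN3 autonomy over turnover, and Tmem173, the adaptor STING, was lower in DP than in DN3 cells in both conditions (log2 -2.41, SE 0.45, in autonomy and -1.97, SE 0.49, in turnover). Of the other interferon regulatory factors, 0 of 6 passed in DP and 0 of 4 in DN3 cells.

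Of 34 further interferon-induced genes tested in DP cells, 1 rose in autonomy and 0 fell, where 0.861% of all genes rose and 0.861% fell. Cmpk2, a mitochondrial nucleotide kinase, had 2.91 to 9.04 CPM in DP autonomy and no read in DP turnover, at least 22.3-fold higher against the floor (adjusted p = 0.0157, edgeR). Of 37 tested in DN3 cells, 5 fell in autonomy, led by Uba7, the activating enzyme of Isg15 (log2 -1.41, SE 0.36), and Shisa5 (log2 -1.23, SE 0.24), and 0 rose. Among all genes tested in DN3 cells, 8.35% fell and 6.53% rose. The class I antigen presentation genes, which interferon also induces, held 3 of 13 that fell in DN3 autonomy, B2m, H2-K1 and H2-D1, and 0 of 13 that passed in DP autonomy over turnover. H2-K1 averaged 322 ± 193 CPM in DN3 autonomy and 1010 ± 246 CPM in DN3 turnover (SD, n = 5 and 4; log2 -1.65, SE 0.32, adjusted p = 0.00591, edgeR). In DP relative to DN3 cells, 8 of 13 fell in autonomy and 9 of 13 in turnover, and 0 rose. The shares of all genes that were lower in DP cells were 25.2% in autonomy and 19.1% in turnover.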

How the data were processed

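The deposited table held unnormalised whole read counts for each Ensembl gene, and the authors' DESeq2 tables, per the file headers, gave the mean normalised signal per gene, the log2 fold change with its standard error, the Wald score, p-values and adjusted p-values. Only the log2 values, their standard errors and the p-values of those tables were used, in sentences that name the authors' deposited table. The submitters' processing notes name FastQC, HISAT2, featureCounts and DESeq2 with the builds mm10 and GRCm38; no version or strand setting is stated, so members that overlap another gene have uncertain counts. Per the labels' protocols, oligo-dT beads separated the RNA from the DNA and Pico Nextera libraries followed.

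Counts were tested in R 4.3.3 with edgeR 4.0.16 (quasi-likelihood test, TMM scaling, filterByExpr, Benjamini-Hochberg adjustment over all genes tested, threshold 0.05). DP libraries and DN3 libraries were each fitted alone, and all 18 libraries in 1 model of 4 group means supplied the difference and the DP over DN3 contrasts. CPM are counts over the TMM-scaled library size. Standard errors are the log2 change divided by the root of the F statistic. A gene without reads in a group is compared with a floor of 3 counts per library, which covers counting error only. The scripts were tested on simulated data. No pair of libraries of 1 group agreed within sampling noise: chi-square per gene was at least 24.1 over 32 pairs. DESeq2 1.42.0, voom in limma 3.58.1, other scaling and filters, and left-out libraries were alternatives.

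The 40 members and all lists were chosen with earlier results of these data known. Given in full are up to 8 members past the threshold with the largest log2 change, or with fewer than 4 passing the 4 smallest p as well, and always Irf9, Stat2, Irf7, Irf1, Isg15, Ifit1 and Mx1. Of the other lists, up to 2 genes per direction are named. A few genes of the marker and pathway lists are not reported here.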

Additional observations from a re-analysis of the deposited data

Results flagged for a closer look

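The value of 1 library stood far from the others of its group in 18 of 97 sets of library values examined with Dixon's criterion. The sets came from members given in full and from the members' summed level. The criterion's nominal rate of about 1 in 20 sets is no yardstick here. A group with reads in only 1 library is always flagged, as for Mx1 in DP autonomy and DP turnover and Ifi44 in DP turnover. The flags also share libraries, so their number was not compared with chance. Of the 18 flags, 7 were DN3 autonomy library RP1135 as the highest. These were Igtp at 298, Ifit1 at 322, Gbp3 at 79.4, Ifi44 at 60.7, Oas2 at 51.6, Ifit3 at 35.6 and Mx1 at 15.8 CPM. In DN3 turnover, RP1140A was the highest for Oasl2 at 53.3 CPM, Parp12 at 45.8 and Samhd1 at 0.791 CPM. In the same group RP1140B was the lowest for Ifit1, at 21.2 CPM, and RP1141B for Oas2, at 0.738 CPM. In DP autonomy, RP1135 was the highest for Ifi44 at 9.46 CPM, RP1136 for Mx1 at 9.99 CPM, and RP1138 was the lowest for Irf7 at 27.8 CPM. In DP turnover, RP1140A was the highest for Oas2 at 5.83 CPM, and RP1141B for Mx1 at 3.77 and Ifi44 at 2.62 CPM.

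The effect of autonomy differed between DP and DN3 cells, by the test of the difference in edgeR, for Irf9 (log2 difference 2.13) and Oasl2. The fitted 8.07 of Oasl2 rests on 0 reads in DP turnover, depends on the prior count and is not a size of effect.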

How the results depend on the processing

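The choice of test and single libraries set most counts. The share of all genes tested that was called the same way is given in brackets after each count. In DP autonomy over turnover 4 members rose (0.861%), and 7 with no filter on low counts (0.652%), 13 by DESeq2 (2.72%) and 9 by voom (2.03%). In 1 model of all 18 libraries 4 rose (0.981%), without Trim30a and Igtp. With turnover A and B libraries summed 1 rose (0.0711%), and without the 2 libraries richest in macrophage markers 0 (0.0572%). With 1 library left out 1 to 11 rose (0.122% to 1.34%). In DP cells 0 members fell in any of these. In DN3 autonomy over turnover DESeq2 gave 1 higher (6.95%) and voom 1 lower (10.6%). Leaving out 1 library gave 0 to 2 higher (3.00% to 7.16%) and 0 to 4 lower (4.42% to 9.59%). The difference, DP minus DN3, had 2 positive members (2.88%), and 4 by DESeq2 (3.41%) and 4 with the replicate block (1.24%). It had 1 without the 2 macrophage-rich libraries (2.09%) and 1 to 7 with 1 library left out (1.62% to 3.04%). DP over DN3 in turnover had 1 higher (15.8%), and 3 by voom (18.7%), 3 with the replicate block (13.9%) and 3 with only the groups of the contrast (15.8%). With 1 library left out it had 0 to 2 higher (11.6% to 17.2%). Its 13 lower members (19.1%) were 16 by voom (25.3%), 16 with the replicate block (17.4%) and 8 to 14 with 1 library left out (15.2% to 19.8%). DP over DN3 in autonomy had 8 lower (25.2%), 5 by voom (28.6%) and 4 to 9 with 1 library left out (22.7% to 25.0%). Irf9 kept its call in the difference in every setting run for it. Summing the turnover A and B libraries was run only within each cell type, so the difference was not tested in that setting. The cause of the shifts in these counts was not tested.

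The library number as a replicate block applied only between cell types. It gave 4 positive members in the difference, where 1.24% of all genes were positive. In DP over DN3 turnover it gave 3 higher and 16 lower, where 13.9% of all genes were higher and 17.4% lower. In autonomy it gave 6 higher and 8 lower, where 19.0% of all genes were higher and 22.8% lower. Across all genes, the deviations of same-numbered libraries had r from -0.03 to 0.06 in 8 pairs, none over 0.1. In 5 of the 8 pairs the DP library matched its own number best among the DN3 libraries of its condition. No chance value was computed for that count, so whether the numbers pair the samples is not settled. The main DP over DN3 contrasts do not use the numbers. Among the 40 members, deviations from the group mean had the same sign in DP and DN3 for 38 in RP1138, 34 in RP1135 and 18 to 23 in the other numbers.

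Signs turned only for uncalled members. Under voom these were Irf7 in DN3 (-0.16), Stat2 in DP (0.0026), and in DP over DN3 autonomy Ifit1 (0.31) and Isg15 (0.50). Mx1 turned in the difference without the 2 macrophage-rich libraries (0.61). Leaving out 1 library gave from -0.0095 to 0.82 for Irf7 and from -0.44 to 1.62 for Mx1 in DN3, from -0.22 to 0.063 for Stat2 in DP, and in the difference from -0.062 to 0.19 for Irf1, from -0.28 to 1.26 for Ifit1 and from -7.79 to 6.42 for Mx1. In DP over DN3 autonomy it gave from -0.90 to 0.64 for Ifit1, from -0.52 to 0.45 for Isg15, from -8.71 to 0.59 for Mx1 and from -0.031 to 0.75 for Irf7. Depth sets what a count of 0 allows, 0.114 to 0.57 CPM per library. Oas2, Oasl2, Mx1 and Ifi44 fell below the filter on low counts in DP autonomy over turnover, and the deepest DP turnover library, RP1140B, had 0 reads of Oasl2, Mx1 and Ifi44.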
